A study of Mus musculus with 32 samples.

Results

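The comparison asked whether TNF and IFN, given together to cultured mouse lung endothelial cells with a control siRNA, changed gene expression by more or by less than their separate effects combined. The 16 si-control libraries, of 32 in the series, were used, with 4 biological replicates each of cells without cytokine (si-control), with TNF (si-control + TNF), with IFN (si-control + IFN) and with TNF + IFN (si-control + TNF + IFN). The measure was the TNF-by-IFN interaction on the log2 scale. It is the log2 difference between TNF + IFN and TNF alone, minus the log2 difference between IFN alone and no cytokine. A value of 0 means that the fold changes of the single cytokines multiplied, a positive value that the combined level was above that product, and a negative value that it was below. All genes entered, 15250 of the 54429 symbols in the table after a minimum-count filter. At an adjusted p under 0.05 (edgeR, quasi-likelihood test with Benjamini-Hochberg adjustment over all genes tested), 64 genes were called with an interaction above 0 and 99 with one below 0.

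The cells were the Veravec line, so the replicates share 1 cell line. Every group, the no-cytokine group included, had been transfected with siRNA and Lipofectamine RNAiMAX and again a day later, and the cytokines (TNFα at 10 ng/mL, IFNγ at 1000 U/mL) were present for 16 h before total RNA was taken for bulk RNA-seq. The other 16 libraries received siRNA against Dnmt1 (si-dnmt) under the same 4 cytokine states and served here only as a second place to look at the same interaction. Silencing Dnmt1 under these cytokines was the purpose of the series.

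TNF binds its receptor on endothelial cells and releases NF-kB subunits such as RelA, which move to the nucleus and switch on adhesion molecules and chemokines. IFNγ acts through the JAK kinases and leads to binding at GAS elements in promoters and to the induction of IRF1, which in turn binds ISRE-type elements. Many genes of leukocyte recruitment and antigen presentation carry binding sites for both pathways, and TNF can itself induce IRF1 and, through it, interferon-type genes. Endothelial cells are the first cells a circulating T cell meets, and the combination of both cytokines is typical of inflamed tissue.

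Total counts of the 16 libraries ran from 17734651 to 23657734. The endothelial genes Cdh5 and Pecam1 were high in every library, at 929 to 2879.9 CPM and 737 to 2166 CPM (CPM is the count divided by the library's total, scaled with TMM factors). Of the leukocyte markers 3 of 20 passed the count filter, and the highest of the others, Laptm5, reached 0.53 CPM in any library, with Cd3e and Adgre1 at 0 in all 16. Their sum was led by Cd68 and ran from 191 to 227 CPM without cytokine and from 101 to 169 CPM with TNF + IFN. Of the epithelial markers 3 of 14 passed, with Sftpc at 0. Fibroblast markers (6 of 10 passed, Lum at 0) summed to 47.6 to 84.9 CPM without cytokine, where Col3a1 led the sum, and to 23.2 to 36.2 CPM with TNF + IFN. Markers of pericytes and smooth muscle (5 of 11 passed, none of the list at 0) summed to 8.11 to 28.1 CPM without cytokine and 19.3 to 65.6 CPM with TNF + IFN. In every group, replicates 1 and 2 lay apart from replicates 3 and 4, and the labels do not say what separates them, so interactions are also given within these pairs of replicates. In bulk RNA, fewer cells of a kind and less RNA per cell cannot be told apart.

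The 163 called genes were 1.07% of the genes tested, with 0.42% called above 0 and 0.649% below 0. An absolute log2 interaction of at least 1 was reached by 115 of them (0.754% of genes tested), 38 above and 77 below 0. The median over all 15250 genes was −0.00. A block for the replicate number removes an offset that all groups share, but not a difference in cytokine response between replicates. Fitting it called 646 genes (4.24%), 299 above 0 (1.96%) and 347 below 0 (2.28%). These 646 held all 163 genes, each with the same sign. All 64 positive and all 99 negative genes also kept their sign in replicates 1 and 2 alone and in replicates 3 and 4 alone. The calls were made from these same libraries, so neither the block nor the pairs of replicates gives independent support. A fit of the 16 si-control libraries by themselves called 93, of which 21 were above 0.

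**Figure D1:**
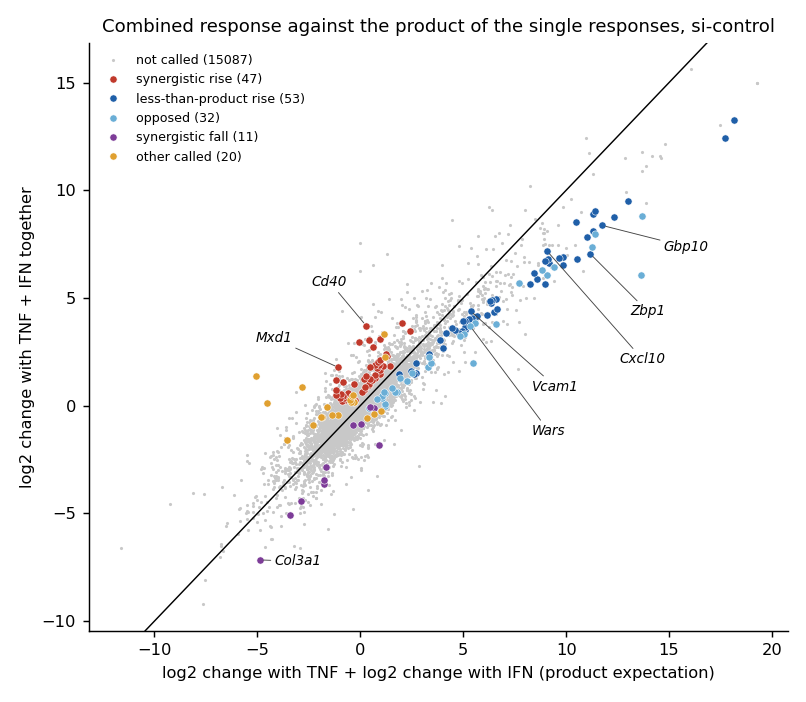
Each point is a gene, with the sum of its log2 changes under TNF alone and IFN alone (x axis) against its log2 change under TNF + IFN (y axis), all against no cytokine in si-control cells. The line marks equality, where the single fold changes multiply. Of the 163 called genes, the 53 less-than-product rises and the 32 opposed genes lie under the line, most of them at expected rises above 0, and the 47 synergistic rises lie above it.

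The called genes differed in shape, and 4 classes held most of them. A synergistic rise was a positive interaction with TNF + IFN called above each single cytokine and above no cytokine, and 47 genes met it. A less-than-product rise was a negative interaction in which TNF + IFN still lay at or above the higher single cytokine, and 53 genes met it. Opposed genes, 32 in number, had a negative interaction and a TNF + IFN mean below the higher single cytokine, but not below both single cytokines and no cytokine. Synergistic falls, 11 in number, had TNF + IFN called below each single cytokine and a mean below that without cytokine. The remainder comprised 7 positive genes whose combined mean still lay below no cytokine, 10 other positive and 3 other negative genes. Under the replicate block the 4 classes held 165, 109, 117 and 99 genes.

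TNF + IFN together raised 23.5% of all genes tested and lowered 21.6%, so the interaction was called for a small part of the genes that responded. Most negative interactions lay where both cytokines raised the same gene. Of the 99 negative genes, 79 were called higher with TNF alone (16.1% of all genes tested were), 87 with IFN alone (8.57% of all genes) and 76 with both. The single-cytokine comparisons share libraries with the interaction, so this overlap is a description and no separate result. All 53 less-than-product rises were called higher with each single cytokine, and IFN gave the higher mean in 48 of them. The class definition already puts both single means above no cytokine, so the first of these counts is no separate result. The median interaction of the 53 was −1.63, and their level with TNF + IFN was a median of 1.42 times the IFN level and 4.19 times the TNF level. TNF + IFN was called above IFN in 27 of the 53 (15.6% of all genes were) and above TNF in 51 (12.6% of all genes). The class requires a combined mean at or above both single means, so an excess over the shares of all genes is no result. A negative log2 interaction is not a fall: 39 of these 53 genes lay above the sum of the single responses on the CPM scale (TNF plus IFN minus no cytokine), 23 of them by more than 2 standard errors of that excess, and 5 lay below it by that margin. Of the 3587 genes that TNF + IFN raised, 2359 lay above their sum, 692 of them by that margin, and 165 below it by that margin. Lying above the sum was thus not limited to this class. The share above it by that margin was larger in the class, but the class requires a combined mean at or above both single means. The larger share is therefore a description.

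The list with the lowest median was the guanylate-binding proteins and immunity-related GTPases, interferon-induced GTPases that attack the vacuoles of intracellular microbes. Of 23 tested, 14 were called below 0 and 0 above 0, and their median interaction was −2.01. TNF alone had raised 21 of the 23 and IFN alone 22. With the replicate block 21 of the 23 were called below 0. These GTPases are a multigene family with closely related members, and reads could be split among Gbp2, Gbp6, Gbp10, Tgtp2 and the predicted genes of the family.

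Gbp10 measured 2.16, 3.66, 3.82 and 3.23 CPM in replicates 1 to 4 without cytokine. With TNF it measured 31.2, 41.4, 34.6 and 33.9 CPM. IFN alone took it to 1092, 1313, 820.4 and 835 CPM, close to the 1162, 1156, 956 and 981 CPM of the libraries with both cytokines. TNF alone thus gave a rise that did not overlap with no cytokine, while the IFN and TNF + IFN libraries overlapped. The log2 interaction was −3.38 ± 0.43 (SE, adjusted p = 1.33e-05), −3.73 in replicates 1 and 2 and −3.05 in replicates 3 and 4, and the combined mean was 1.02 times the CPM sum.

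Gbp6 went from 14.6 ± 2.46 CPM (SD, n = 4) without cytokine to 146 ± 27.7 with TNF, 1339 ± 321 with IFN and 1368 ± 189 with TNF + IFN, an interaction of −3.29 ± 0.38 (adjusted p = 3.06e-06). Gbp4 rose to 65.5 ± 16.0 CPM with TNF, 1226 ± 279 with IFN and 1561 ± 247 with TNF + IFN from 5.66 ± 1.30, an interaction of −3.18 ± 0.35 (adjusted p = 1.72e-06). For these members the level with both cytokines was close to that with IFN alone: the change from IFN to TNF + IFN was 0.03 on the log2 scale for Gbp6 (adjusted p = 0.94) and 0.35 for Gbp4 (adjusted p = 0.29).

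**Figure D2:**
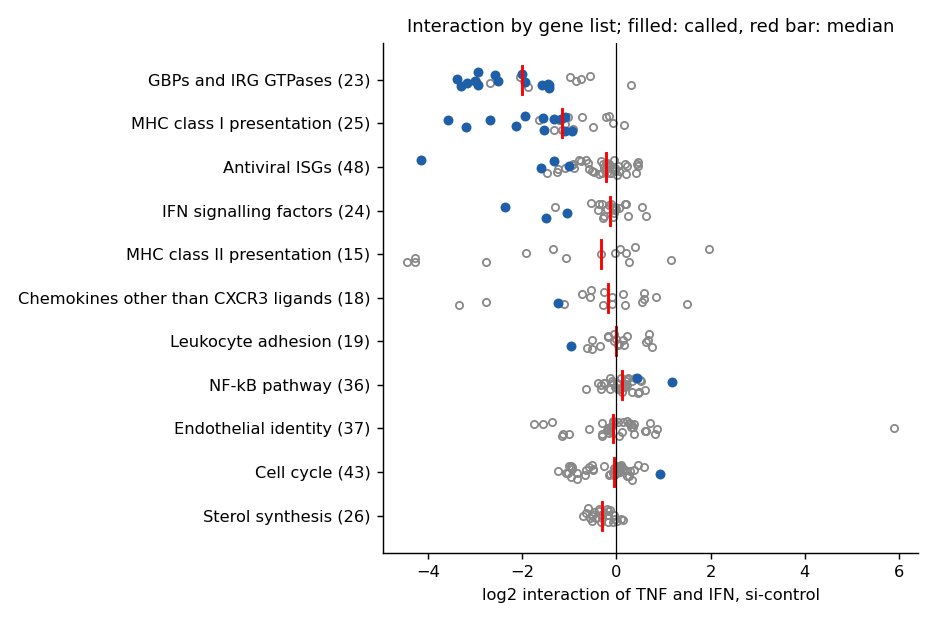
Log2 interaction of TNF and IFN in si-control cells (x axis) for the tested members of 11 gene lists, with the number tested in parentheses. Filled points were called, open points were not, and the red bar is the median, which lay at −2.01 for the GTPases, −1.15 for MHC class I presentation and 0.12 for the NF-kB pathway.

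MHC class I presentation, the machinery that cuts proteins and loads the peptides for display to CD8+ T cells, followed with 12 of 25 tested genes called below 0, 0 above and a median of −1.15 (20 of 25 with the block). The called genes stood at several steps of the route. They were the immunoproteasome subunits Psmb8, Psmb9 and Psmb10, the proteasome activators Psme1 and Psme2, the peptide transporter Tap1 and Tap2, the tapasin-related Tapbpl, and the class I molecules H2-Q4, H2-Q6, H2-Q7 and H2-T10. Erap1, Tapbp, B2m, H2-K1 and H2-D1 were tested and not called. The class I molecules share sequence, so that their separate counts are uncertain.

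Psmb9 measured 2.72, 2.12, 4.31 and 3.72 CPM without cytokine and 31.6, 26.4, 21.8 and 22.9 CPM with TNF. It measured 152, 162, 139 and 172 CPM with IFN and 217, 186, 183 and 185 CPM with TNF + IFN. The 4 TNF + IFN libraries lay above all 4 IFN libraries, but TNF on top of IFN was not called (log2 change 0.30, adjusted p = 0.20), against 2.99 for TNF on its own. The interaction was −2.68 ± 0.26 (adjusted p = 2.58e-07), and the combined mean exceeded the CPM sum by 14.2 ± 10.8 CPM (SE).

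The called class I molecules ranged in how they compared with the sum, from H2-Q4 at 1.10 times and H2-T10 at 1.38 times to H2-Q7 and H2-Q6. H2-Q6 measured 129, 138, 56.5 and 56.4 CPM with TNF and 183, 193, 33.2 and 40.2 CPM with IFN. With TNF + IFN it reached 999, 880.0, 310.2 and 325 CPM from a mean of 1.43 ± 0.378 without cytokine. Every TNF + IFN library lay above every library with a single cytokine, and the combined mean was 3.05 times the CPM sum, although the log2 interaction was −3.57 ± 0.90 (adjusted p = 0.0438). H2-Q7 had a combined mean of 583 ± 284 CPM, 2.40 times the sum, and an interaction of −3.19 ± 0.73 (adjusted p = 0.0215).

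Interferon factors and sensors were sorted unevenly. Among the regulatory factors of the pathway 3 of 24 were called below 0, Irf1 and Batf2 among them, 0 above 0, and the median was −0.13. Among 48 antiviral interferon-stimulated genes 4 were called below 0 (Zbp1, Oas3, Herc6 and Ube2l6), 0 above 0, and the median was −0.23, with 38 below 0 where 7712 of all 15250 genes were. The block called 4 of 24 and 10 of 48 below 0.

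Irf1, the transcription factor that carries much of the later IFNγ response, measured 40.7, 42.0, 32.6 and 27.8 CPM without cytokine. It measured 145, 163, 128 and 143 CPM with TNF and 839, 918, 595 and 662 CPM with IFN. With TNF + IFN it measured 1219, 1020.0, 1061 and 1009 CPM, above every IFN library. The interaction was −1.50 ± 0.20 (adjusted p = 4.22e-05), nearly equal in both pairs of replicates (−1.56 and −1.45), and the mean lay 215 ± 90.0 CPM (SE) above the sum.

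Batf2, an IFN-inducible partner of Irf1, had an interaction of −2.36 ± 0.45 (adjusted p = 0.00409) at 85.9 ± 22.1 CPM with IFN and 120.1 ± 33.4 with TNF + IFN.

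Zbp1, the sensor of Z-form nucleic acid that can start necroptosis, measured 3.43, 2.76, 3.87 and 2.06 CPM without cytokine. TNF alone took it to 73.8, 89.6, 71.4 and 68.8 CPM and IFN alone to 306, 351, 225 and 245 CPM. With TNF + IFN it measured 458, 428, 365 and 349 CPM, of which replicate 4 lay below the highest IFN library. The interaction was −4.14 ± 0.41 (adjusted p = 2.58e-07), and the combined mean was 1.13 times the CPM sum.

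The largest negative interactions also included genes that were almost silent without cytokine. Slamf8, a receptor of the SLAM family, had 0 counts in all 4 libraries without cytokine, 1.24 ± 0.230 CPM with TNF, 5.88 ± 1.25 with IFN and 32.5 ± 2.59 with TNF + IFN. Its fitted interaction of −5.26 depends on the small count added to the 0s. With 3 counts over the no-cytokine group, the limit that a count of 0 allows, the value was −2.67, so that the interaction was at least 6.38-fold below the product, while the combined mean was 4.56 times the CPM sum. Ubd, the ubiquitin-like modifier FAT10, rose from 0.257 ± 0.115 CPM to 2558 ± 770.4 CPM with both cytokines, 4.68 times the sum, with an interaction of −4.92 ± 0.91 (adjusted p = 0.0027), −5.90 in replicates 1 and 2 and −3.04 in replicates 3 and 4. Ms4a4d had −3.73 ± 0.45 (adjusted p = 6.42e-06) and Serpina3f, a serine protease inhibitor, −3.50 ± 0.86 (adjusted p = 0.0368).

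The promoters of 4 genes are printed to show the letters that the interferon and NF-kB pathways read, in members with a called negative interaction (Irf1, Gbp2 and Cxcl10) and in Cxcl9. Each run covers the 250 bases before the start site, 5′ to 3′ on the strand of the gene, from RefSeq on build GRCm38.p6. Capitals mark matches to the GAS element (TTCNNNGAA), the ISRE core (GAAANNGAA) or the kB core (GGNNNTTCC), searched on both strands, where N is any base. A GAS match can share its GAA with an ISRE core. Irf1 holds, in the first of its 2 windows, a GAS match that begins 90 bases before the start (chr11:53769764-53770013, plus strand), and Gbp2 an ISRE core at 58 bases before it (chr3:142620413-142620662, plus strand). Gbp2 also holds a kB core at position 8 after the start, outside the printed letters. Cxcl9 (chr5:92328080-92328329, minus strand) and Cxcl10 (chr5:92348890-92349139, minus strand) each hold 1 ISRE core and 2 kB cores. Neither Irf1 window matches the kB core as written, but a window without a match can still hold a site in other letters. All 4 printed genes hold a match, but other genes do not. The 250 bases of Psmb9, called below 0, and of Traf1 and Ikbke, called above 0, held none. Those of Cd274, called below 0, held an ISRE core, and those of Mxd1, called above 0, a kB core.
Irf1: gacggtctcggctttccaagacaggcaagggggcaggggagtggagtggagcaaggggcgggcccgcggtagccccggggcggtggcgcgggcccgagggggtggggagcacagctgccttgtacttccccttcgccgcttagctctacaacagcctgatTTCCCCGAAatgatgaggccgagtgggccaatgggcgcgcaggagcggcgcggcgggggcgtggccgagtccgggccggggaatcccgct
Gbp2: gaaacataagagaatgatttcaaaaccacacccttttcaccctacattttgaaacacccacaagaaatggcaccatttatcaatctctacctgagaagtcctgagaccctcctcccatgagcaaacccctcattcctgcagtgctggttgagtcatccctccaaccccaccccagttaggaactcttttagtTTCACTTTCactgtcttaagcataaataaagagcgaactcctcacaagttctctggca
Cxcl9: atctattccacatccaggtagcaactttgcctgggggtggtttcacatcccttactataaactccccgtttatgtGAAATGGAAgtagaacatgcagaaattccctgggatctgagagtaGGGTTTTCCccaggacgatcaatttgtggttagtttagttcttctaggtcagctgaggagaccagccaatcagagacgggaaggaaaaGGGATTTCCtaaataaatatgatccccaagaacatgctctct
Cxcl10: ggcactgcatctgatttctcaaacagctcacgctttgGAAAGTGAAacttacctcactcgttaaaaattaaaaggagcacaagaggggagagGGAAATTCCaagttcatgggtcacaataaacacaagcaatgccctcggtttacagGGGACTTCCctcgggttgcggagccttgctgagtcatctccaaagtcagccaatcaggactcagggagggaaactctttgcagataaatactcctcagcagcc

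A window of 300 bases (250 before and 50 after a start) was held for 10527 of the 15250 genes, in 13451 windows. A GAS or ISRE match stood in 13.6% of all these windows, in 34.2% of the 79 windows of negative genes and in 4.69% of the 64 windows of positive genes. By element, ISRE cores stood in 7.40% of all windows, 30.4% of those of negative genes and 1.56% of those of positive genes. The kB core stood in 22.3%, 24.1% and 14.1%. These are letters in a window, given as a description, and they do not show which factor was bound. IFN alone was called to raise 87 of the 99 negative genes and 14 of the 64 positive genes. The share of matches in IFN-raised genes without a called interaction was not tested.

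Cytokine-induced recruitment genes split by how their level is read. The 3 ligands of the T-cell receptor CXCR3 (Cxcl9, Cxcl10 and Cxcl11) all lay above the CPM sum by more than 2 standard errors, and all had a log2 interaction below 0, of which that of Cxcl10 was called.

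Cxcl10 measured 9.48, 6.57, 16.6 and 15.7 CPM without cytokine. It measured 283, 349.6, 222 and 241 CPM with TNF and 381, 437, 172 and 165 CPM with IFN. With TNF + IFN it reached 1975, 2046, 1441 and 1532 CPM, more than 3 times any library with a single cytokine. The combined mean exceeded the CPM sum of 551 by 1198 ± 171 CPM (SE) and was 3.17 times that sum, yet it lay below the product of the single fold changes, with an interaction of −1.90 ± 0.39 (adjusted p = 0.00782). That value was −3.01 in replicates 1 and 2 and −0.70 in replicates 3 and 4.

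Cxcl9 measured 0.0469, 0.159, 0.0439 and 0.0448 CPM without cytokine, 6 counts in all. It measured 3.78, 4.22, 2.85 and 3.20 CPM with TNF and 179.9, 167, 57.7 and 43.7 CPM with IFN. With TNF + IFN it reached 4547, 4359, 3149 and 3216 CPM. The 4 combined libraries lay far above all 8 libraries with a single cytokine, and their mean was 33.1 times the CPM sum. On the log2 scale the interaction was −0.43 ± 1.3 (adjusted p = 0.977), with those 6 counts behind the untreated level, and it was −0.58 and 0.05 in the pairs of replicates.

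Nos2, the inducible nitric oxide synthase, showed the same contrast between scales. It measured 0.235, 0.583, 0 and 0.135 CPM without cytokine, 14.4, 18.1, 19.0 and 15.1 CPM with TNF and 5.60, 16.1, 1.36 and 1.94 CPM with IFN. With TNF + IFN it measured 1703, 1412, 965 and 974 CPM, 55.7 times the CPM sum. The log2 interaction was 1.48 ± 1.17 (adjusted p = 0.80) and was not called, with 19 counts over the 4 libraries without cytokine. Cxcl11 went from 22 CPM expected as the sum to 293 ± 131 CPM measured, with an interaction of −2.63 ± 1.40 (adjusted p = 0.566).

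**Figure D3:**
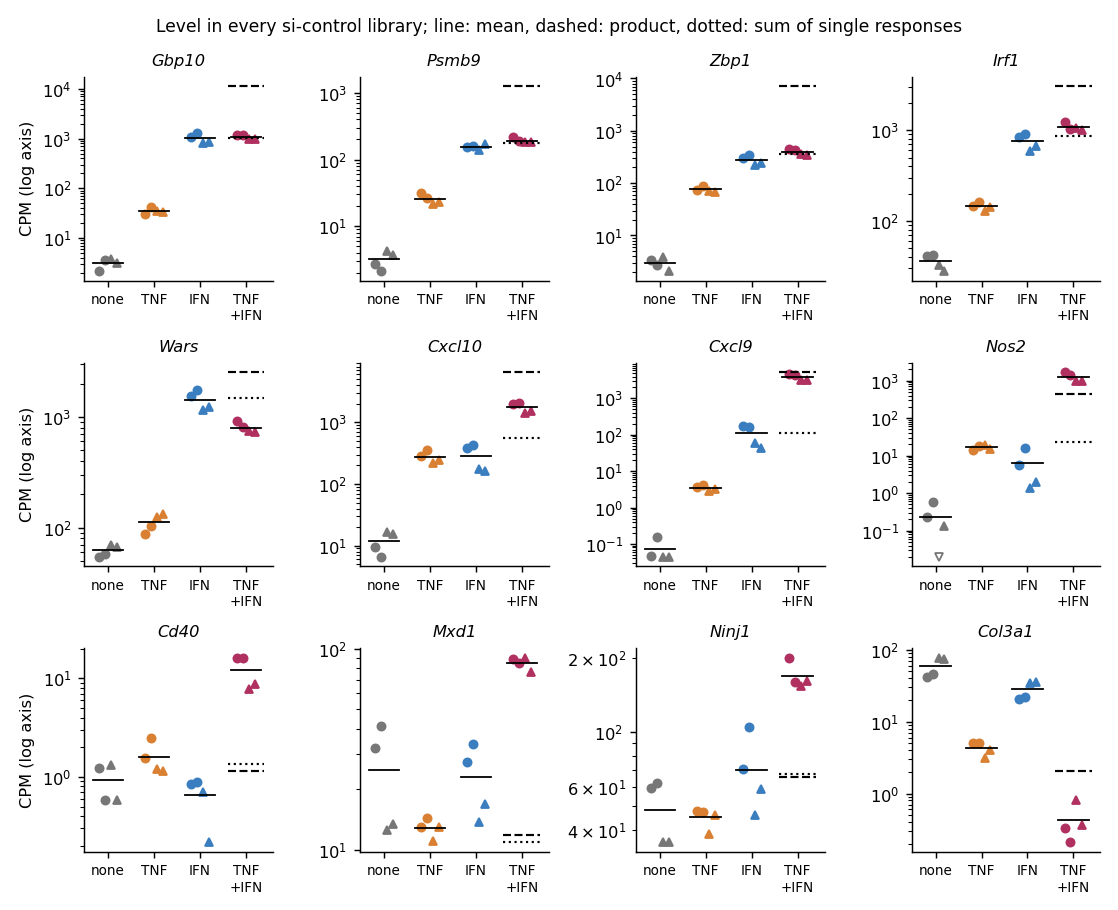
CPM on a log axis in each of the 16 si-control libraries for 12 genes, with circles for replicates 1 and 2, filled triangles for replicates 3 and 4, an open triangle for a library at 0 and a line for the group mean. Over TNF + IFN the dashed line is the product and the dotted line the sum of the single responses. Gbp10 with TNF + IFN sits on the sum (1.02 times), Cxcl9 at 33.1 times the sum and close to the product, and Cd40 above both.

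Of 19 adhesion molecules tested, 1 was called below 0 (Vcam1) and 0 above 0 (2 below and 1 above with the block). Their median was −0.00, with 9 above and 10 below 0. Vcam1, which holds rolling lymphocytes through their integrins, measured 842, 839, 772 and 752 CPM with TNF, 129, 121, 108 and 92.1 CPM with IFN and 897, 912, 1092 and 1039.5 CPM with both, against 46.9 ± 3.30 without cytokine. The 4 combined libraries lay above the 4 TNF libraries. The interaction was −0.96 ± 0.15 (adjusted p = 0.00053), −1.42 in replicates 1 and 2 and −0.52 in replicates 3 and 4, and the mean lay 118 ± 53.6 CPM (SE) above the sum. Icam1, a ligand of leukocyte integrins, had an interaction of 0.04 ± 0.30 (adjusted p = 0.992) at 226 ± 88.0 CPM without cytokine, 611 ± 117 with TNF, 408 ± 135 with IFN and 1134 ± 244 with both. E-selectin (Sele) had −0.35 ± 0.35 (adjusted p = 0.867).

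Of 18 other chemokines 1 was called below 0, the membrane-bound Cx3cl1 (interaction −1.25 ± 0.26, adjusted p = 0.00782), which rose to 86.7 ± 14.7 CPM with TNF, 50.5 ± 9.09 with IFN and 174 ± 26.0 with both from 10.6 ± 2.43. Their median was −0.18.

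The ligands that T cells read were called in both directions. Of 12 tested, 1 was called above 0 (Cd40) and 2 below 0 (Cd274 and Tnfrsf14), and the median was 0.02. Cd274 encodes PD-L1, the ligand that restrains T cells. It measured 51.4, 68.2, 46.9 and 42.9 CPM with TNF, 649, 661, 297 and 286 CPM with IFN and 758, 771, 466 and 422 CPM with both. The IFN and TNF + IFN libraries overlapped across the pairs of replicates. The interaction was −2.27 ± 0.34 (adjusted p = 0.00024) from 8.49 ± 0.916 CPM without cytokine. Tnfrsf14, the receptor HVEM, had −1.75 ± 0.28 (adjusted p = 0.00053).

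Cd40 was the strongest synergistic rise. This receptor of the TNF family, through which CD40 ligand of activated T cells signals, measured 1.22, 0.583, 1.32 and 0.583 CPM without cytokine. It measured 1.55, 2.48, 1.21 and 1.16 CPM with TNF and 0.841, 0.884, 0.709 and 0.216 CPM with IFN. With both it measured 16.3, 16.3, 7.83 and 8.84 CPM, above every other library. Neither single cytokine was called (adjusted p = 0.08 with TNF and 0.47 with IFN), and the interaction was 3.43 ± 0.48 (adjusted p = 6.65e-05), 3.09 in replicates 1 and 2 and 3.85 in replicates 3 and 4. The combined mean was 9.21 times the CPM sum. Tnfsf4 (OX40 ligand) and Icosl were not called, with 0.03 ± 0.31 (adjusted p = 0.994) and −2.85 ± 1.17 (adjusted p = 0.367), and Icosl held 2 counts in all without cytokine.

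The 47 synergistic rises had interactions of 0.43 to 3.43 with a median of 1.09. All 47 were called above each single cytokine, which the class requires. Of the 47, 46 exceeded the CPM sum by more than 2 standard errors, and the median level of all 47 was 2.17 times that sum. In 10 of them neither single cytokine was called. Of these 10, Cd40, Fam84a (interaction 3.00 ± 0.71, adjusted p = 0.0261), Sema4d (2.39 ± 0.42, adjusted p = 0.00138), Ninj1 and Pdp1 had the largest interactions. The combined libraries of Fam84a were spread widely (9.76 ± 8.6 CPM). None of the 47 belonged to the MHC class I or GTPase lists. These lists hold 25 and 23 of the 15250 genes tested, so their absence from 47 genes is near that small share. Of the 64 positive genes as a whole, TNF alone was called to raise 18 and to lower 18 (14.6% of all genes were lowered), and IFN alone to raise 14 and to lower 18 (5.92% of all genes were lowered). These comparisons too share libraries with the interaction and only describe the genes.

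Mxd1, a MAX partner that opposes MYC, measured 32.1, 41.4, 12.5 and 13.5 CPM without cytokine and 13, 14.4, 11 and 13 CPM with TNF. It measured 27.4, 33.3, 13.8 and 16.9 CPM with IFN and 89.2, 84.6, 90.3 and 76.6 CPM with TNF + IFN. The 4 combined libraries exceeded all others, and TNF alone had lowered the gene (log2 change −0.95, adjusted p = 0.044), which shows in replicates 1 and 2 and not in the near-equal replicates 3 and 4. The interaction was 2.85 ± 0.51 (adjusted p = 0.00175), and the combined mean was 7.85 times the CPM sum.

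Ninj1, a membrane protein needed for the rupture of dying cells, measured 48.1 ± 14.3 CPM without cytokine, 45.0 ± 4.35 with TNF, 70.3 ± 25.4 with IFN and 169 ± 21.4 with both, an interaction of 1.36 ± 0.29 (adjusted p = 0.0107). Pdp1, the phosphatase that activates pyruvate dehydrogenase, measured 39.3 ± 14, 31.2 ± 1.42, 33.1 ± 1.62 and 58.4 ± 4.69 CPM in the same order, an interaction of 1.15 ± 0.25 (adjusted p = 0.0128). Replicates 3 and 4 of Pdp1 without cytokine, at 48.6 and 54.0 CPM, were near the combined level, while replicates 1 and 2 were at 28.1 and 26.5 CPM. Dll1, a Notch ligand, was called above 0 (1.94 ± 0.32, adjusted p = 0.000883), and Jag1, also a Notch ligand, below 0.

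In the NF-kB list 2 of 36 were called above 0, Traf1 and Ikbke, and 0 below 0 (6 above and 0 below with the block), with a median of 0.12. Traf1, an adaptor of TNF-family receptors, measured 36.0, 39.5, 47.3 and 46.6 CPM with TNF, 17.5, 17.9, 9.87 and 13 CPM with IFN and 75.7, 67.9, 83.9 and 74.1 CPM with both, against 18.6 ± 5.54 without cytokine. Its combined libraries did not overlap with any other group, and the interaction was 1.18 ± 0.23 (adjusted p = 0.0048). Ikbke, a kinase that activates interferon regulatory factors, was the smallest call of the synergistic class (0.43 ± 0.11, adjusted p = 0.0421), at 74.4 ± 4.00 CPM with TNF, 30.3 ± 1.86 with IFN and 105 ± 10.0 with both.

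In a smaller set of genes the level with TNF + IFN lay below that with the single cytokine that had raised the gene. Of the 32 opposed genes 13 were called lower with TNF + IFN than with IFN (13.5% of all genes were) and 0 lower than with TNF (8.44% of all genes). The class requires a combined mean below the higher single cytokine, so these counts are a description and no separate result. Over all negative genes, 15 were raised by IFN and lower once TNF was added, and 3 were raised by TNF and lower once IFN was added.

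Wars, the cytoplasmic tryptophanyl-tRNA synthetase and a classical IFNγ target, measured 54.4, 58.4, 70.0 and 66.7 CPM without cytokine and 88.0, 103, 125 and 132 CPM with TNF. It measured 1539, 1738, 1156 and 1234 CPM with IFN and 921, 804, 739.9 and 731 CPM with TNF + IFN. All combined libraries lay below all IFN libraries, although TNF alone had raised the gene (log2 change 0.85, adjusted p = 1.7e-05). TNF on top of IFN changed it by −0.83 on the log2 scale (adjusted p = 2e-05), and the interaction was −1.67 ± 0.19 (adjusted p = 1.73e-06).

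Itga1, a collagen-binding integrin subunit, measured 541, 509, 475 and 424 CPM with IFN and 274, 282, 219 and 221 CPM with both, and its interaction was −1.45 ± 0.35 (adjusted p = 0.0368). Fst, the activin antagonist follistatin, measured 591 ± 75.4 CPM with IFN and 301 ± 57.8 with both, the same mean as the 301 ± 48.7 without cytokine, and its interaction was −1.21 ± 0.25 (adjusted p = 0.00843). Kyat3 (−1.04 ± 0.25, adjusted p = 0.0346), an enzyme of kynurenine metabolism, D16Ertd472e (−1.26 ± 0.21, adjusted p = 0.00117) and Rgmb (−0.60 ± 0.15, adjusted p = 0.0433), a co-receptor for BMPs, were also called lower with TNF + IFN than with IFN (adjusted p = 5.4e-06, 2.8e-08 and 4.5e-07).

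In the opposite direction Jag1 measured 157, 163, 171 and 164 CPM with TNF and 59.5, 64.8, 88.3 and 77.0 CPM with both, with 93.4 ± 10.2 CPM without cytokine. TNF on top of IFN gave no called rise (log2 change −0.23, adjusted p = 0.23), and the interaction was −1.04 ± 0.20 (adjusted p = 0.00397). Cd55, which shields cells from complement, also lay lower with both, at 131 ± 10.0 CPM with TNF and 56.6 ± 7.84 with both (−0.91 ± 0.17, adjusted p = 0.00328). Without cytokine Cd55 measured 83.9 ± 8.08 CPM, so both Jag1 and Cd55 had a combined mean below that of untreated cells. Itga2, another collagen-binding integrin subunit, was raised by TNF to 133 ± 30.1 CPM, lowered by IFN to 3.47 ± 0.474 from 14.3 ± 2.62, and measured 67.8 ± 6.11 with both. Its interaction was positive (1.07 ± 0.26, adjusted p = 0.0362), although the combined level was below that with TNF.

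Col3a1, a fibrillar collagen, was among the 11 synergistic falls. It measured 41.7, 45.6, 78.0 and 75.3 CPM without cytokine and 5.07, 5.06, 3.16 and 4.09 CPM with TNF. It measured 20.7, 22.2, 34.6 and 36.1 CPM with IFN and 0.336, 0.208, 0.801 and 0.370 CPM with TNF + IFN, 31 counts in all. Every combined library lay below every other library, and the interaction was −2.28 ± 0.52 (adjusted p = 0.0213), −3.17 in replicates 1 and 2 and −1.53 in replicates 3 and 4. Col3a1 is also a fibroblast marker and a large part of the fibroblast sum given above, and the part of such cells in the result was not tested. Rcn2, a calcium-binding protein of the endoplasmic reticulum, was called with neither single cytokine, at 87.4 ± 4.36 CPM with TNF (adjusted p = 0.20) and 87.3 ± 12.3 with IFN (adjusted p = 0.29), and measured 53.3 ± 5.23 CPM with both against 98.2 ± 13.3 without (interaction −0.54 ± 0.14, adjusted p = 0.0439).

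In the remaining lists at most 2 genes each were called. Endothelial identity genes had 0 of 37 called in either direction and a median of −0.07 (2 above and 2 below 0 with the block), with Cdh5 at 0.04 ± 0.33 (adjusted p = 0.992) and Pecam1 at −0.04 ± 0.24 (adjusted p = 0.991). MHC class II presentation had 0 of 15 called (2 below 0 with the block) and a median of −0.33, where 4 of the 15 had a group at 0 counts. Its activator Ciita, with 7 counts in the untreated cells, had −2.78 ± 1.42 (adjusted p = 0.541), which the block called (adjusted p = 0.0246). Interleukins and growth factors had 0 of 19 called (1 below 0 with the block). Cell cycle genes had 1 of 43 called (Ccne1, above 0), complement and acute phase genes 1 of 18 (Cd55), nitric oxide and tryptophan genes 1 of 17 (Wars), angiogenic and Notch genes 2 of 32 (Dll1 and Jag1) and matrix genes 1 of 41 (Col3a1). The block called 1 above and 5 below 0 among the cell cycle genes, 2 and 5 among the angiogenic and Notch genes, 1 and 3 among the complement genes, 1 and 3 among the matrix genes and 0 and 2 among the nitric oxide and tryptophan genes. Sterol synthesis genes had 0 of 26 called with either fit, a median of −0.31 and 23 of 26 below 0. Dnmt1, the gene targeted in the other libraries, had −0.07 ± 0.46 (adjusted p = 0.991).

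The si-dnmt libraries share no sample with the si-control libraries and gave the interaction a second time, in cells with another siRNA. There 54 genes were called (0.354%), 27 above 0 (0.177%) and 27 below 0 (0.177%). Of these 54, 39 were also called in si-control cells, all 39 with the same sign, which is 23.9% of the si-control list and 72.2% of the si-dnmt list. All 64 positive genes were above 0 and 97 of the 99 negative genes (all but Dach1 and Gm6218) below 0 in si-dnmt cells, with medians of 0.72 and −0.84 there against 1.10 and −1.55 in si-control cells. The genes were selected on their si-control values, and such selection alone can give smaller medians in a second set. The medians therefore do not show a weaker interaction in si-dnmt cells.

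Cd40 had an interaction of 2.01 ± 0.40 (adjusted p = 0.014) in si-dnmt cells, Mxd1 2.41 ± 0.50 (adjusted p = 0.019), Sema4d 2.88 (adjusted p = 0.00032) and Gbp4 −2.42 ± 0.34 (adjusted p = 0.00021). Zbp1 had −1.74 ± 0.38 (adjusted p = 0.032), closer to 0 than its −4.14 in si-control cells. The difference itself, the three-way interaction of siRNA, TNF and IFN, was called by edgeR for 0 genes (0%), with 284 at an unadjusted p under 0.05, of which 45 were among the 163, so the smaller medians were not shown to differ gene by gene. DESeq2 called 2 genes, and edgeR with the replicate block called 2, Zbp1 and Tma16.

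**Figure D4:**
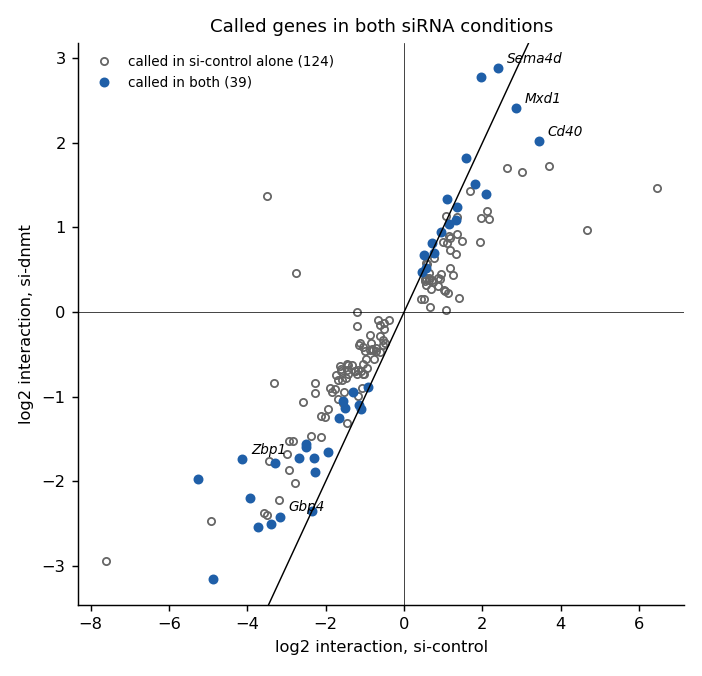
Log2 interaction of TNF and IFN in si-control cells (x axis) against the same quantity in si-dnmt cells (y axis) for the 163 genes called in si-control cells. Filled points were called in both (39), open points in si-control alone, and the line marks equality. The points lie in the upper right and lower left quadrants with 2 exceptions, and most lie closer to 0 on the y axis. The genes were selected on their x values, which alone can give smaller y values.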

How the data were processed

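RNA-seq counts per gene were deposited by the authors for all 32 libraries. The submitters' processing notes name cutadapt 4.9, FastQC 0.12.1, MultiQC 1.27.1, featureCounts and DESeq2, and neither they nor the methods give the aligner, genome build or strand setting. Antisense and overlapping genes are therefore uncertain. Symbols (54429) were filtered with filterByExpr (minimum count 10), which kept 15250. edgeR 4.0.16 (R 4.3.3, TMM, quasi-likelihood F test, Benjamini-Hochberg adjustment over all genes tested, threshold 0.05) was fitted to the means of 8 groups over the 32 libraries, and every adjusted p is from it unless a replicate block or a left-out library is named. CPM values carry the SD over 4 libraries, and log2 interactions their SE from the fit. The CPM sum and its excess are descriptions with no test. The script that fits the interaction was tested on simulated data. The labels give biological replicates 1 to 4 and no day or batch. Deviations of same-numbered libraries correlated in every pair of groups (0.30 to 0.51), as did those of replicate 1 with 2 and of 3 with 4 (0.30 to 0.49). Across these pairs they ran from −0.49 to −0.30. The values set replicates 1 and 2 apart from 3 and 4 and do not show pairing by the single number. Between libraries of a group the mean squared Pearson residual, a measure of spread in counts, was 3.63 to 41.6 within these pairs of replicates. It was 57.7 to 104.8 across them. The fits treat the 4 libraries of a group as independent, and whether they are was not tested. A fit with the replicate block was run, which takes up an offset shared by all groups and not a difference in cytokine response. P-values measure the spread between these libraries of 1 cell line. Alternatives were DESeq2 1.42.0 and its size factors, other count filters, fits within an siRNA, replicate pairs alone, counts per gene identifier and each library left out.

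Named genes were markers of the question, the 8 largest called interactions of each direction with a group mean of at least 1 CPM and the same sign in both pairs of replicates, the 5 largest emergent or reversed genes of each kind, and up to 3 called genes per direction of each list. Gbp2, Gbp3 and the other genes given only in a list of calls, Tma16, Dach1 and Gm6218 were named after their values were seen. The genes and lists were chosen with earlier results of these data known. Some items are not reported here.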

Additional observations from a re-analysis of the deposited data

Results flagged for a closer look

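Of 234 groups of 4 libraries examined for the named genes, 7 held a library whose gap to the nearest other, divided by the range of the group, exceeded Dixon's critical value. Chance gives such a gap in about 1 in 20 groups. With TNF, replicate 1 of Asap3 measured 0.988 CPM against 2.04 to 2.11 in the others, and replicate 1 of Rcn2 measured 93.9 CPM against 84.6 to 86.0. With TNF, replicate 4 of Cd55 measured 116 CPM against 134 to 138. Without cytokine, replicate 1 of Cx3cl1 measured 6.94 CPM against 11.5 to 12, and replicate 1 of Fam84a 1.13 CPM against 1.30 to 1.33. With TNF + IFN, replicate 1 of Ninj1 measured 200 CPM against 154 to 161, and replicate 1 of Psmb9 217 CPM against 183 to 186.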

How the results depend on the processing

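The 163 calls became 282 with DESeq2, 93 with only the libraries of the same siRNA, 646 with the replicate block, 506 with that block within the siRNA (a setting chosen after seeing the data), 1641 in replicates 1 and 2 alone and 661 in replicates 3 and 4 alone. The 115 calls with an absolute log2 of at least 1 became 255 with the block, 229 with the block within the siRNA, 560 in replicates 1 and 2 and 204 in replicates 3 and 4. The 47 synergistic rises became 77 with DESeq2, 16 within the siRNA, 165 with the block, 332 in replicates 1 and 2 and 126 in replicates 3 and 4. In si-dnmt cells the 54 calls became 96, 120, 277, 740 and 319 under the same 5 settings and 737 with the block within the siRNA. The 0 three-way calls became 2 with DESeq2, 2 with the block, 98 in replicates 1 and 2 and 9 in replicates 3 and 4. The cause of these moves was not tested.

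Leaving out 1 library gave 124 to 176 calls, 97 to 121 with an absolute log2 of at least 1, 77 to 113 below 0 and 42 to 78 above 0, where the 42 came without TNF replicate 1. No called named gene turned its direction under any setting run. Genes named for their size, emergence or reversal had to share their sign in both pairs of replicates, so those settings could not turn them. Of the 49 called named genes, 20 were lost within the siRNA, 7 with no count filter, 4 with the block within the siRNA, 2 in replicates 1 and 2 and 6 in replicates 3 and 4. The block lost none, and apart from Ciita it changed no other call. Calls of these genes were lost without at least 4 of the 16 libraries, each taken alone: Ccdc162, Ccne1, Col3a1, Enpp2, Fam84a, H2-Q6, H2-Q7, Ikbke, Itga1, Itga2, Kyat3, Oas3, Rcn2, Rgmb and Serpina3f. The largest adjusted p without 1 library was 0.133 (Rcn2).

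Direction turned for genes that were not called. In replicates 3 and 4 alone the log2 interaction was −0.0095 for Cdh5, 0.012 for Cxcl11, 0.052 for Cxcl9, −0.11 for Icam1, 0.033 for Pecam1 and −0.39 for Tnfsf4, and in replicates 1 and 2 alone it was −0.30 for Ido1. With 1 library left out it ran from −0.176 to 0.208 for Cdh5, −0.223 to 0.112 for Dnmt1, −0.148 to 0.235 for Icam1, −0.210 to 0.0838 for Pecam1 and −0.168 to 0.261 for Tnfsf4.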
